A study of Mus musculus with 44 samples.

Results

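The TRAP-seq values of 10 genes of hippocampal neurogenesis and immature neurons were examined in ELE (early-life exercise) and sedentary mice. They were chosen by name, for what they are known to do, at a time when earlier results of these data were known. Each matched 1 of the 55335 genes in the count table. Nes marks neural stem cells and Eomes (Tbr2) the intermediate progenitors, and Mki67 and Top2a mark dividing cells. Neurod1 drives neuronal differentiation of the progenitors. Dcx, Sox11, Sox4 and Igfbpl1 are transcripts of neuroblasts and immature neurons, and Calb2 (calretinin) marks a brief postmitotic stage and also some interneurons, mossy cells and Cajal-Retzius cells.

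The mice were male Emx1-NuTRAP animals, in which Emx1-Cre switches on tags on the ribosome and on the envelope of the nucleus. ELE mice could run freely on a wheel between postnatal days 21 and 41, sedentary littermates of the same genotype had standard cages, and hippocampi were collected on the following day. RNA on tagged ribosomes was captured either from both hippocampi together with the nuclei (simultaneous isolation, SIT, with 4 ELE and 4 sedentary mice) or from 1 hippocampus for RNA alone (separate isolation, with 3 ELE and 3 sedentary mice for the left and the same for the right). Every group carried the Cre and the reporter, so that no library came from mice without them to show how much untagged RNA was carried along. According to the study, Emx1-Cre recombines in most excitatory neurons of cortex and hippocampus and in neural progenitors, and only in a small share of inhibitory interneurons.

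New granule cells of the dentate gyrus arise after birth from radial glia-like stem cells, through dividing intermediate progenitors and then neuroblasts that extend processes and join the granule cell layer. Each step has its own transcription factors and cytoskeletal proteins, and the early ones are switched off as the neuron matures. Voluntary running is a well-known stimulus of this process in rodents.

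The 20 libraries held between 45895097 and 65767802 counts on genes. For SIT, the main comparison used the 3 ELE and 2 sedentary libraries that the study compared, and the log2 difference with all 8 is given beside it. The ELE library NT6.304 and the sedentary libraries NT7.2.3 and NT7.2.4 were left out by the study. Of the compared libraries, 2 ELE ones are numbered TG7.4, as no sedentary mouse is, and the sedentary ones are numbered NT6. Exercise and the mouse number can therefore not be fully told apart in any SIT result. The libraries NT7.2.3 and NT7.2.4 held 8.64% and 9.64% of mitochondrial transcripts, and the others at most 0.523%. In the same pair the microglia markers summed to 172 and 182 CPM (counts scaled to the library size), against 2.51 to 9.46 CPM in the other 18 libraries. Markers of excitatory forebrain neurons were present in every library, led by Slc17a7 at 648 FPKM (CPM per kilobase of exons), and so were astrocyte markers, led by Gfap at 470 FPKM.

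All 10 genes were above the detection limit of 3 counts in each of the 20 libraries. The limit corresponded to 0.0453 to 0.0657 CPM. The lowest value of any member was 23 counts, for Nes in the sedentary SIT library NT6.306, which is 7.67 times the limit. The 4 genes of stem and dividing cells were nevertheless read from few counts: 26 to 106 for Eomes, 23 to 291 for Nes, 38 to 196 for Mki67 and 33 to 141 for Top2a. Counting error alone gives a coefficient of variation of 16.2% to 20.9% at the lowest counts of these genes. The other 6 genes had between 431 and 9569 counts, and their counting error at the lowest count was at most 4.82%. The limit covers counting only, not RNA carried over from untagged cells. In the 17 libraries compared, the 6 microglia markers summed to 2.51 to 7.08 CPM. Eomes, Mki67, Top2a and Nes averaged 1.02 to 2.24 CPM over the 20 libraries. How much of their RNA came from untagged cells was not tested.

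Per length, the 10 genes fell into an abundant and a scarce set. Mean levels over the 20 libraries were 18.0 FPKM for Calb2, 11.2 for Neurod1, 7.91 for Sox4, 5.51 for Sox11, 5.38 for Igfbpl1 and 1.69 for Dcx. The genes of stem, progenitor and dividing cells lay lower, at 0.349 FPKM for Nes, 0.245 for Eomes, 0.179 for Top2a and 0.151 for Mki67. Igfbpl1 was above Dcx in all 20 libraries and Dcx above Nes in 19. Sox11 was above Igfbpl1 in 8 of 20 only, and among the scarce genes Nes was above Eomes, Eomes above Top2a and Top2a above Mki67 in 14 of 20 each, so that the order within these neighbours was not fixed. Among the 30965 genes with any count, Calb2 stood at the 90.3rd percentile of FPKM, Dcx at the 65.1st and Mki67 at the 44.9th.

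**Figure D1:**
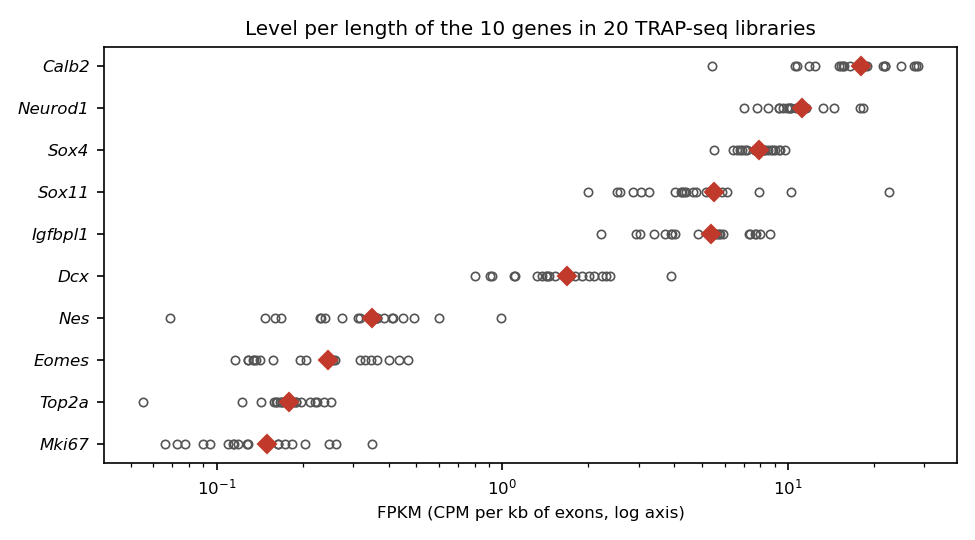
Level per length (FPKM, log axis) of each gene in the 20 libraries (circles) and the mean over them (diamonds). The means run from 0.151 FPKM for Mki67 to 18.0 for Calb2, and Nes, Eomes, Top2a and Mki67 lie below the 6 genes of differentiating and immature neurons.

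The windows around the transcription starts are shown for 4 members, because Mki67 and Top2a stand for the dividing cells, Dcx for the immature neurons, and Sox4 varied together with Top2a between libraries. RefSeq, on GRCm38.p6, gave a window of 300 bases, from 250 before to 50 after a start, for 8 of the 10 genes. Each is written 5′ to 3′ on the strand of the gene, here the minus strand for all 4, and Dcx has a second window that is not shown. Capitals mark the CCAAT box (CCAAT, or ATTGG on the other strand) and the cell cycle homology region (TTTGAA, or TTCAAA on the other strand), a pair of elements known from promoters of cell cycle genes.
Dcx, chrX:143933170-143933469: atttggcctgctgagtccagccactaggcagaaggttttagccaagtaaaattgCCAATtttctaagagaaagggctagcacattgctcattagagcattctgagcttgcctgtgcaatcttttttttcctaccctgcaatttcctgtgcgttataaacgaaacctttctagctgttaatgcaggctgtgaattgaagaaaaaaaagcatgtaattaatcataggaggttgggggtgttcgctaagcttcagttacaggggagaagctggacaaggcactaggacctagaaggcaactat
Sox4, chr13:28953650-28953949: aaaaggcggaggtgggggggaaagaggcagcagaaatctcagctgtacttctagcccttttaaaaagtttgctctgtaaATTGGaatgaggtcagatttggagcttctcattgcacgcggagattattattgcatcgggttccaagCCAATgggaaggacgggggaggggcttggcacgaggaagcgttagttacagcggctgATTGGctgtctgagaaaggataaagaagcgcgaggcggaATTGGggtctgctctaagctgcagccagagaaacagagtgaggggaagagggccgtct
Mki67, chr7:135716330-135716629: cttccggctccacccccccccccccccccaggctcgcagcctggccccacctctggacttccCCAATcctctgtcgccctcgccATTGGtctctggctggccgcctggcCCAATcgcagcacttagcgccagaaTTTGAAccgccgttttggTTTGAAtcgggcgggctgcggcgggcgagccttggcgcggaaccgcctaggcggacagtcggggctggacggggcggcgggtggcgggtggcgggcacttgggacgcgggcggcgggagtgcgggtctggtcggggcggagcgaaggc
Top2a, chr11:99024140-99024439: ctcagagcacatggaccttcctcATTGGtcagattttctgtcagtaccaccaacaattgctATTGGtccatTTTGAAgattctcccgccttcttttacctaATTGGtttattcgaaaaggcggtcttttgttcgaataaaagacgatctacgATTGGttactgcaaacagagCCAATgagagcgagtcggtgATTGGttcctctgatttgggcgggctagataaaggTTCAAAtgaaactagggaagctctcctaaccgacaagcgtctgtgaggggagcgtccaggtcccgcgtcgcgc
The Mki67 window held 3 CCAAT boxes and 2 TTTGAA matches, and the Top2a window 6 and 2. Among all 32851 windows of this length, 3.37% held at least 3 CCAAT boxes, 2.31% at least 2 TTTGAA matches, and 26 windows (0.0791%) both. The Sox4 window held 4 CCAAT boxes, a number reached or passed by 1.06% of all windows, and no TTTGAA match. The Dcx window held 1 CCAAT box, as 37.4% of all windows held 1 or more. No match overlapped another. These are matches of letters, and binding at them was not measured in these libraries.

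In the tests, a gene is called by the study's rule, an unadjusted p under 0.05 with an absolute log2 fold change above 0.39 (1.31-fold), in edgeR's quasi-likelihood test. With the filter on low counts, edgeR gave no gene an adjusted p under 0.05 in SIT, on the left or on the right, where 5.48%, 3.94% and 2.78% had an unadjusted p under 0.05, DESeq2 gave 17, 3 and 13 genes at an adjusted p under 0.05, and edgeR with no filter gave 105 in SIT and 27 on the right. The adjusted p-values of the 10 members were 0.905 to 0.999 in SIT, 0.960 to 0.993 on the left and 1 on the right, and none of the 10 was called on the right, where 1.97% of all 17570 genes were called. In bulk libraries, fewer cells of a type and less RNA per cell cannot be told apart.

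Among the genes of stem and dividing cells, Nes encodes the intermediate filament nestin. In the left hippocampus it was at 2.04, 3.86 and 2.63 CPM in ELE mice and at 1.08, 2.34 and 1.03 CPM in sedentary mice. The ELE libraries lay higher, with 1 sedentary library, TG9.1.2, inside their range. The log2 fold change was 0.94 ± 0.40 (SE), a 1.92-fold difference with a 95% interval of 1.02 to 3.596 (adjusted p = 0.960, edgeR). Nes was the 1 member of 10 called on the left, where 2.07% of all 17750 genes were called. The call was lost when any of 4 of the 6 libraries was left out, TG9.1.4, TG9.2.2, TG7.3.4 or TG9.2.4. Without TG9.1.2 the difference was 1.43 on the log2 scale. With a block by the first part of the mouse number the left difference was 0.997 and still past the rule.

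On the right, Nes pointed the other way. It was at 2.31, 2.01 and 2.48 CPM in ELE mice and at 6.37, 3.14 and 1.47 CPM in sedentary mice. The log2 difference was -0.69 ± 0.44, and it was -0.02 without TG7.3.3, the sedentary library with the highest value. Nestin is also made by vascular cells, and in TG7.3.3 the endothelial markers summed to 26.7 CPM, the highest of the 20 libraries, against 1.15 to 4.48 CPM in the other separately isolated ones. Their part in the Nes value was not tested. Without TG9.2.3 the right difference was -1.07 and passed the rule. In SIT, Nes was at 0.951, 1.76 and 2.65 CPM in ELE mice and at 1.49 and 0.442 CPM in sedentary mice, which overlap (log2 difference 0.88 ± 0.64, and 2.01 and past the rule without NT6.305). It was 0.50 ± 0.51 with all 8 SIT libraries.

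Mki67 encodes the Ki-67 protein of cycling cells. On the left it was at 1.16, 1.85 and 1.30 CPM in ELE mice and at 1.15, 0.780 and 0.662 CPM in sedentary mice. All 3 ELE libraries were higher, with the lowest of them just above the highest sedentary one, and the test gave a log2 difference of 0.73 ± 0.36, which did not pass the rule with all 6 libraries and did at 0.99 without TG7.3.4. On the left, 4.83% of all genes were higher in every ELE library. On the right the same gene was at 1.29, 0.899 and 1.195 CPM in ELE and at 1.75, 1.10 and 2.05 CPM in sedentary mice, a log2 difference of -0.54 ± 0.36. In SIT it was at 1.49, 1.65 and 0.954 CPM in ELE and at 1.65 and 0.731 CPM in sedentary mice (0.20 ± 0.54). With all 8 SIT libraries the difference had the opposite sign, -0.38, with NT7.2.3 and NT7.2.4 at 2.64 and 3.51 CPM.

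Top2a, the topoisomerase of dividing cells, did not move with Mki67. On the left it was at 0.498, 1.43 and 1.65 CPM in ELE and at 1.53, 1.78 and 1.92 CPM in sedentary mice (log2 difference -0.55 ± 0.43). The ELE library TG7.3.2 was the lowest of all 20, with 33 counts. On the right it was between 1.67 and 2.15 CPM in ELE and between 1.29 and 1.71 CPM in sedentary mice (0.25 ± 0.30), and in SIT between 1.11 and 1.99 CPM and between 1.46 and 2.02 CPM (-0.18 ± 0.43, and 0.08 ± 0.34 with all 8 SIT libraries). The groups overlapped in all 3 preparations.

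Eomes was spread widely within groups. Its log2 differences were 0.72 ± 0.67 in SIT (0.54 ± 0.51 with all 8 libraries), -0.15 ± 0.60 on the left and 0.54 ± 0.43 on the right. Without NT6.306 the SIT difference was 1.31, and without TG9.2.4 the left difference had the opposite sign, 0.62, as in 3 of the 6 fits that left out 1 library. The level in ELE mice ran from 0.534 to 1.95 CPM in SIT, and in sedentary mice from 0.483 to 1.67 CPM on the left. These intervals are wide: on the left the fold lay between 0.351 and 2.33.

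Among the genes of immature neurons, Dcx encodes doublecortin, the microtubule-associated protein most used to count newborn neurons. In SIT it was at 29.2, 26.5 and 16.7 CPM in ELE mice and at 18.4 and 28.2 CPM in sedentary mice. On the left it was at 10.2, 17.4 and 24.04 CPM in ELE and at 14.0, 18.2 and 21.8 CPM in sedentary mice. On the right it was at 13.9, 11.4 and 22.8 CPM in ELE and at 11.7, 19.3 and 18.0 CPM in sedentary mice. ELE and sedentary mice overlapped in each preparation, and the log2 differences were 0.05 ± 0.25, -0.06 ± 0.29 and -0.02 ± 0.26. The intervals of the fold were 0.705 to 1.51, 0.607 to 1.51 and 0.658 to 1.47. The difference of Dcx had the opposite sign with all 8 SIT libraries, -0.25 ± 0.29, with the sedentary library NT7.2.3 at 49.3 CPM.

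Neurod1 differed in sign between preparations without passing the test. In SIT it was at 50.2, 49.0 and 30.9 CPM in ELE and at 31.1 and 39.6 CPM in sedentary mice, and 1 ELE library was below both sedentary ones. The log2 difference was 0.29 ± 0.21, it was 0.23 ± 0.19 with all 8 SIT libraries, and it was 0.48 and past the rule without TG7.4.2. On the left it was between 19.2 and 28.0 CPM in ELE and between 25.3 and 29.1 CPM in sedentary mice (-0.16 ± 0.15), and on the right between 23.2 and 27.5 CPM and between 21.3 and 31.1 CPM (-0.06 ± 0.15). Part of Neurod1 overlaps Cerkl on the same strand, so that reads there cannot be assigned to 1 of them with certainty.

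Sox11 and Sox4 are SoxC transcription factors that start neuronal gene expression. Sox11 had an 11.3-fold range over the 20 libraries, second to the 14.4-fold range of Nes, and its high values came from single mice. On the left it was at 20.9, 85.4 and 35.9 CPM in ELE and at 25.4, 35.4 and 39.7 CPM in sedentary mice (log2 difference 0.50 ± 0.43). Without TG9.1.4, the mouse at 85.4 CPM, the difference was -0.23, and without TG7.3.2 it was 0.84 and past the rule. In the ELE library TG9.1.4 the interneuron markers also summed to 536 CPM, against 229 to 313 CPM in the other separately isolated libraries, and the link was not tested. In SIT and on the right Sox11 differed by -0.05 ± 0.30 and -0.02 ± 0.34. The sign in SIT turned to 0.72 ± 0.58 with all 8 libraries, and within the mice numbered NT6 the difference was 1.71 and past the rule, both with the ELE library NT6.304 at 188 CPM.

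Sox4 was the steadiest member, with a 1.77-fold range and a coefficient of variation of 14.1% over the 17 libraries. On the right it was at 39.97, 42.5 and 39.0 CPM in ELE and at 36.7, 34.6 and 36.8 CPM in sedentary mice. All 3 ELE libraries were higher, as for 3.71% of all genes on the right, by a log2 difference of 0.17 ± 0.10. On the left it was at 26.5, 32.6 and 40.7 CPM in ELE and at 34.0, 38.1 and 39.4 CPM in sedentary mice (-0.16 ± 0.15). In SIT it was at 44.6, 31.9 and 30.9 CPM in ELE and at 41.9 and 46.9 CPM in sedentary mice (-0.31 ± 0.17), and it passed the rule at -0.50 without NT6.303. It was -0.12 ± 0.17 with all 8 SIT libraries. It was not called in any preparation with all the libraries compared.

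Igfbpl1, a secreted insulin-like growth factor binding protein of neuroblasts, was at 23.9, 18.3 and 13.1 CPM in SIT ELE mice and at 9.90 and 23.8 CPM in SIT sedentary mice. The 2 sedentary mice were further apart than any ELE pair. The log2 difference was 0.13 ± 0.34, and it was 0.90 and past the rule without NT6.306 and -0.37 without NT6.305. It was 0.285 ± 0.35 with all 8 SIT libraries. The left and right differences were -0.05 ± 0.33 and 0.20 ± 0.33, and on the right it was 0.69 and past the rule without TG9.1.1.

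Calb2 encodes calretinin, a calcium-binding protein. In SIT it was at 38.1, 27.1 and 32.5 CPM in ELE mice and at 49.8 and 48.2 CPM in sedentary mice. The groups did not overlap, as for 22.1% of all genes in this comparison of 3 with 2 libraries. The log2 fold change was -0.59 ± 0.15, a fold of 0.663 with a 95% interval of 0.526 to 0.835 (adjusted p = 0.905, edgeR). Calb2 was the 1 member of 10 called in SIT, where 3.65% of all 18238 genes were called.

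With all 8 SIT libraries, Calb2 was at 27.1 to 43.2 CPM in ELE and at 37.4 to 49.8 CPM in sedentary mice, which then overlapped, and the log2 difference was -0.39 ± 0.16 (adjusted p = 0.517; 7.7% of genes called). The 2 lowest ELE values came from the mice numbered TG7.4, a number that no sedentary mouse has. With a block by the first part of the mouse number, the Calb2 difference in the libraries the study compared was -0.375 and not past the rule. Within the 4 mice numbered NT6, Calb2 was at 38.1 and 43.2 CPM in ELE and at 49.8 and 48.2 CPM in sedentary mice, and the difference was -0.28 and no longer past the rule. In the separately isolated left hippocampi Calb2 was at 32.0, 33.0 and 18.5 CPM in ELE and at 26.7, 18.8 and 28.9 CPM in sedentary mice (0.17 ± 0.24). On the right it was at 27.3, 26.3 and 20.6 CPM in ELE and at 9.44, 38.2 and 21.7 CPM in sedentary mice (0.11 ± 0.37), and the difference was 0.65 and past the rule without TG9.1.1. The groups overlapped on both sides.

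Markers of the other cells that contain calretinin were read beside it in the same 5 SIT libraries. Of 10 interneuron markers, 1, Pvalb, was lower in ELE mice, and their sum was 159 to 247 CPM in ELE and 202 to 222 CPM in sedentary mice. None of 6 Cajal-Retzius and none of 3 mossy cell markers passed the rule, with sums of 24.9 to 35.0 CPM against 30.8 to 34.1 CPM and 5.07 to 7.23 CPM against 4.44 to 5.71 CPM. Of 6 markers of ventricular zone neuroblasts, 2 were lower (Dlx1 and Dlx2), with sums of 5.51 to 11.8 CPM against 11.7 to 13.6 CPM. Of 4 choroid plexus markers, 3 were lower (Clic6, Kl and Folr1), with sums of 128 to 570 CPM against 582 to 666 CPM. Of 7 thalamic markers, 1 (Tnnt1) was lower, with a median log2 difference of 0.02 and sums of 47.7 to 58.0 CPM against 53.9 to 55.8 CPM. When 1 ELE library was left out, the Pvalb call was lost without NT6.303 or TG7.4.2 and the Folr1 call without NT6.303 or TG7.4.1. The Kl call was lost without NT6.303 and the Clic6 call without TG7.4.1. Dlx1, Dlx2 and Tnnt1 stayed called without each ELE library. Leaving out a sedentary library left 1, and those calls are not given here. Over all 8 SIT libraries, 9 of the 10 interneuron, 2 of the 6 Cajal-Retzius, 4 of the 6 ventricular zone neuroblast, 2 of the 7 thalamic and all 4 choroid plexus markers were lower in ELE mice. The part of these cells in the Calb2 difference was not tested.

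**Figure D2:**
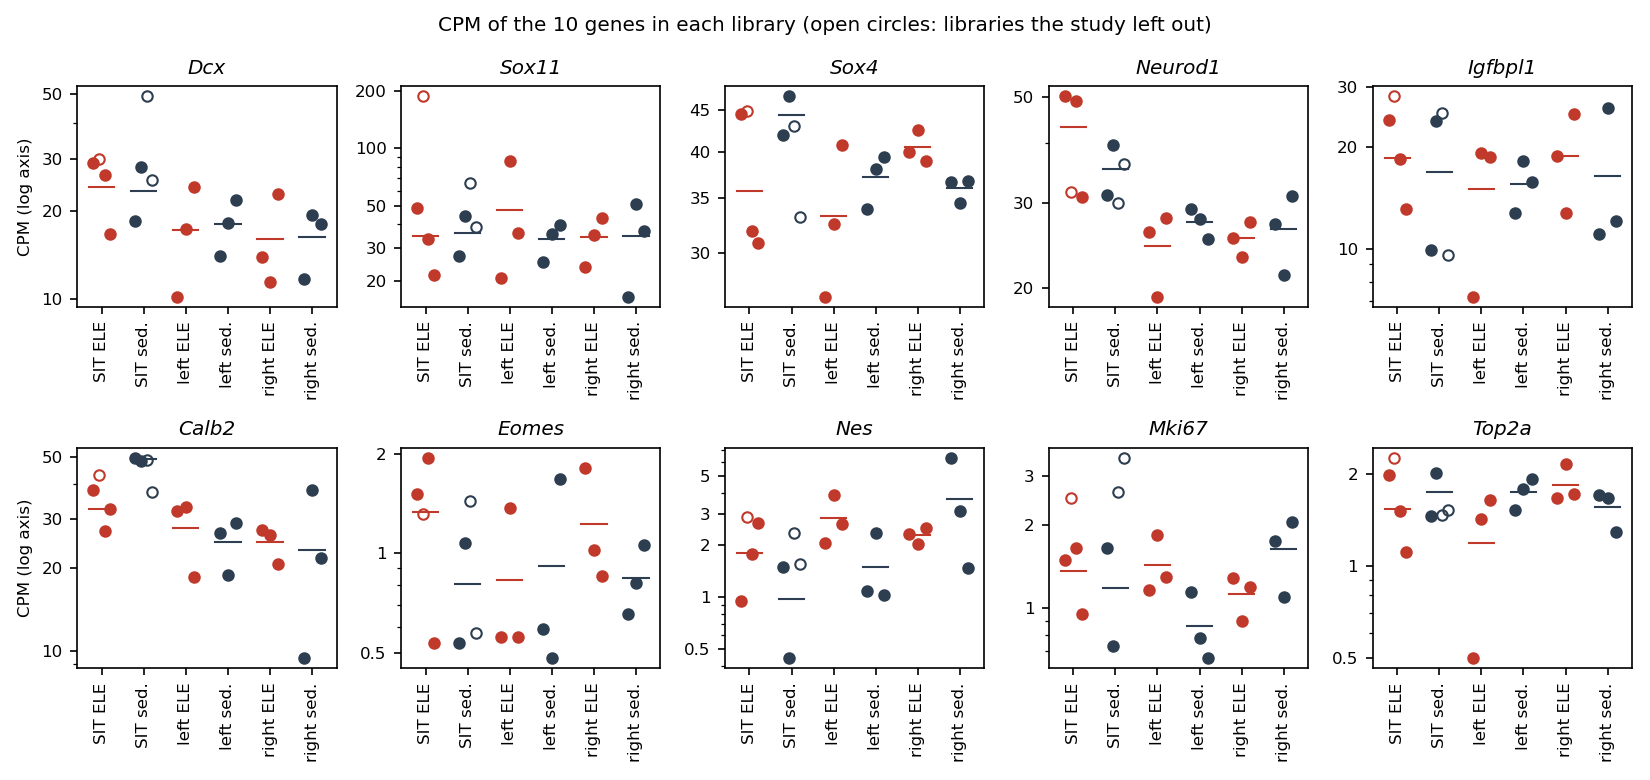
CPM (log axis) of each gene in every library by preparation and exercise. Red points are ELE and dark points sedentary mice, lines are means of the libraries the study compared, and open circles are the 3 libraries it left out, of which Sox11 in NT6.304 lies at 188 CPM; in SIT, Calb2 is the 1 gene whose compared ELE and sedentary libraries do not overlap.

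Over all preparations, with 9 ELE and 8 sedentary libraries and the preparation as a term, none of the 10 genes was called, where 2.55% of all 20345 genes were called and none had an adjusted p under 0.05 (1476, or 7.25%, had an unadjusted p under 0.05, while DESeq2 gave 55 genes at an adjusted p under 0.05, edgeR with no filter 256 and edgeR with all 8 SIT libraries 2). The fold was 0.987 for Dcx with a 95% interval of 0.768 to 1.27 and for Neurod1 the interval was 0.848 to 1.18. It was 0.941 for Sox4 (0.823 to 1.08), 0.947 for Calb2 (0.711 to 1.26), 1.07 for Igfbpl1 (0.775 to 1.46) and 1.11 for Sox11 (0.776 to 1.59). In this fit a rise of these 6 genes larger than the upper ends lay outside the intervals, while smaller ones were not resolved by these numbers of mice. With all 8 SIT libraries the upper ends were 1.19 for Dcx and for Neurod1, 1.1 for Sox4 and 1.23 for Calb2. They were then 1.54 for Igfbpl1 and 2.16 for Sox11.

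The 4 scarce genes left wider limits in the same fit. The fold was 1.26 for Nes (0.757 to 2.09), 1.27 for Eomes (0.779 to 2.06), 1.09 for Mki67 (0.754 to 1.57) and 0.894 for Top2a (0.647 to 1.24). The adjusted p-values ran from 0.884 to 1 over the 10 genes. Of the 10, 6 had a log2 difference above 0, with a median of 0.05, and over all genes tested 10024 of 20345 were above 0, with a median of -0.003.

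Whether the ELE difference itself varied between SIT, left and right was tested with 1 joint F test of the interaction terms for each gene. None of the 10 had an unadjusted p under 0.05, as 2.97% of all genes had, and all had an adjusted p of 1 (edgeR). The unadjusted values closest to that threshold were those of Nes, Sox4 and Mki67. With no filter on low counts 4 of the 10 had one, Sox11, Sox4, Calb2 and Nes, and 1426 genes in place of 605. The opposite signs of Nes and Mki67 on the left and right are not shown to differ between preparations by the test with the filter.

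**Figure D3:**
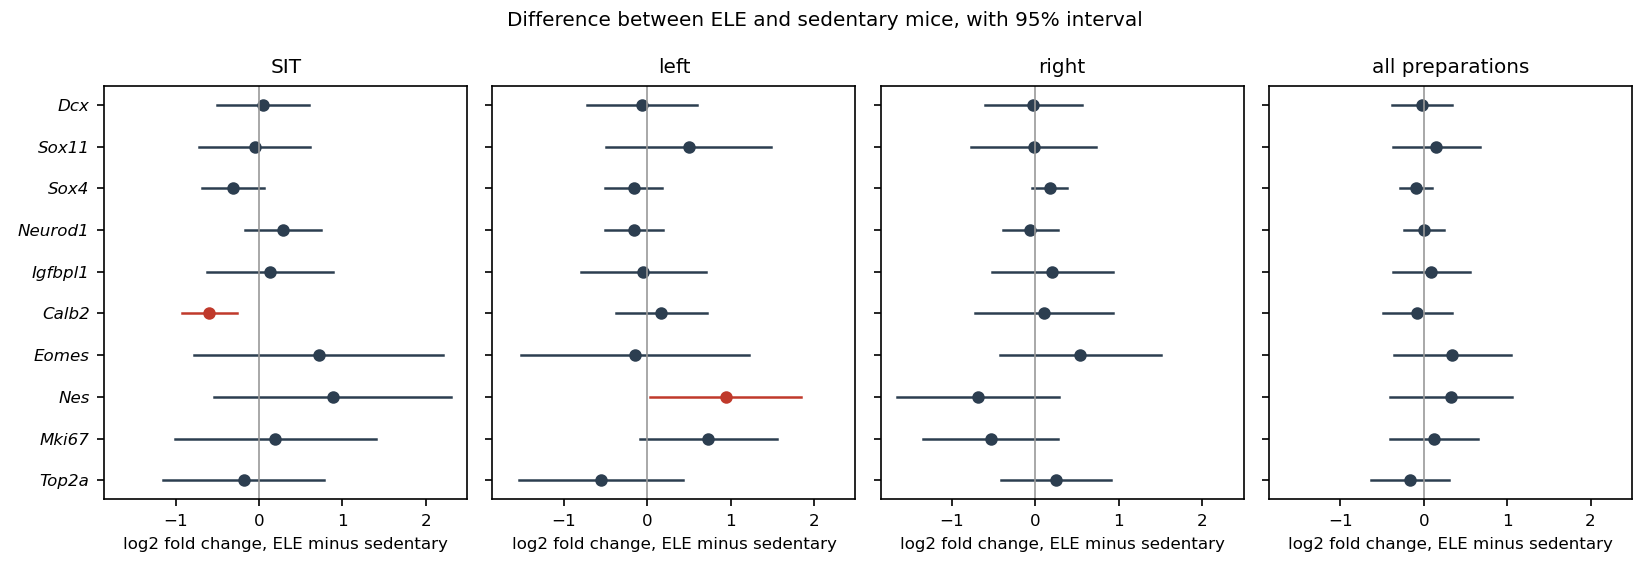
ELE against sedentary mice as log2 fold change (points) with its 95% interval (lines) for SIT, left, right and all preparations together. Red marks the values past the study's rule, Calb2 in SIT at -0.59 and Nes on the left at 0.94; with all preparations together every interval spans 0.

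The wider lists of the pathway were read in the same way. Of all genes, 1.54% were called higher and 2.11% lower in SIT, 1.1% and 0.963% on the left, 0.746% and 1.23% on the right, and 0.924% and 1.63% over all preparations. Of 15 other genes of stem and progenitor cells, led by Hopx at 67.5 FPKM, 1, Sox9, was called lower in SIT (35.8 against 48.8 CPM, log2 difference -0.45 ± 0.15), and none was called on the left, on the right or over all preparations. The Sox9 call was lost without NT6.305, NT6.306 or TG7.4.1, with 0 to 4 of the list called lower when 1 library was left out. None of the 15 was called with all 8 SIT libraries. Their median log2 difference over all preparations was -0.12. Hopx, a marker of quiescent stem cells that is also made by astrocytes, had the only unadjusted p under 0.05 there (104 against 117 CPM, -0.17 ± 0.07, adjusted p = 0.647).

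Of 25 other genes of neuroblasts and immature neurons, 24 were tested in SIT, with 1 called higher and 2 lower, and none was called on either side or over all preparations. Prox1, the transcription factor of granule cell identity, was at 191 CPM in ELE and 139 CPM in sedentary SIT mice (0.46 ± 0.17). The call was lost without NT6.305 or TG7.4.1, and 0 to 2 of the list were higher when 1 library was left out. Stmn1, a microtubule-destabilising protein of growing neurons, was at 195 against 274 CPM (-0.49 ± 0.11), and Fxyd7, a regulator of the sodium pump, at 51.5 against 72.9 CPM (-0.50 ± 0.13). Over all preparations, 4 had an unadjusted p under 0.05, Neurod2 and Prox1 higher (log2 differences 0.30 ± 0.08 and 0.29 ± 0.08) and Fxyd7 and Dpysl3 lower (-0.32 ± 0.09 and -0.17 ± 0.08), all with adjusted p of 0.341 or more. Neurod2, a factor of mature as well as young excitatory neurons, was the most abundant of the list at 182 FPKM, and Neurod4 the least at 0.0313 FPKM.

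Stmn1 and Fxyd7 stayed called in SIT without each ELE library in turn, which does not separate exercise from the mouse number. When all 8 SIT libraries entered, 2 of the 24 were higher in SIT, Prox1 and Neurod2, and 2 lower, Stmn1 and Elavl4, the last named after its values were seen. Neurod2 was then called higher over all preparations.

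Of 33 cell cycle genes, 32 were tested in each preparation and 33 together, and none had an unadjusted p under 0.05 in SIT or over all preparations. On the left Mcm5, a replication helicase subunit, was higher (6.68 against 4.84 CPM) and Bub1b, a mitotic checkpoint kinase, lower (0.760 against 1.69 CPM), and on the right Ccna2, cyclin A2, was higher (1.24 against 0.389 CPM). The Mcm5 call was lost without TG7.3.4, TG9.1.4 or TG9.2.4, the Bub1b call without TG9.2.4 and the Ccna2 call without TG9.1.3. The summed level of the 33 genes was between 186 and 218 CPM in every library. Pcna was the most abundant at 9.95 FPKM and Bub1 the least at 0.0390 FPKM.

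Of 25 niche signals and receptors, 1 was called higher and 4 lower in SIT. Bdnf, the growth factor, was at 96.6 against 70.9 CPM (0.45 ± 0.13), while Nog, an inhibitor of BMP signalling, was at 6.53 against 10.98 CPM (-0.75 ± 0.23) and Gli1, an effector of hedgehog signalling, at 0.409 against 1.53 CPM (-1.90 ± 0.70). The calls of Bdnf and Gli1 were lost without NT6.303 or NT6.305 and that of Nog without NT6.305, and leaving out 1 library gave 0 to 1 higher and 0 to 6 lower. None was called on the left and 1, Kdr, a receptor of VEGF, was lower on the right (1.34 against 3.22 CPM, log2 difference -1.26 ± 0.42). VEGF receptors are made by endothelial cells, and in the same comparison all 5 endothelial markers had differences below 0 (median -2.25), 1 of them called, with sums of 1.27 to 3.88 CPM in ELE mice and of 1.65, 3.11 and 26.7 CPM in sedentary mice. Without TG7.3.3, the library at 26.7 CPM, Kdr was at -0.77 and no longer called, and the endothelial median was 0.08. Their part in the Kdr difference was not tested. When all 8 SIT libraries entered, 1 was called higher and 5 lower in SIT, and 1 higher and 4 lower over all preparations. Of all genes, 2.29% were then called higher and 5.41% lower in SIT, and 4.18% were called over all preparations, 1.21% higher and 2.96% lower. In the same SIT fit all 6 microglia markers (median -4.10) and all 5 endothelial markers (median -2.75) were lower, as were 1 and 5 of them over all preparations, and their part was not tested. With the libraries compared, none was called over all preparations. Those with an unadjusted p under 0.05 there were named after their values were seen: Rbpj (0.37 ± 0.10) and Bdnf (0.26 ± 0.11) higher and Smo lower (-0.26 ± 0.10).

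Of 8 markers of mature granule cells, the product of this lineage, 4 were called higher in SIT (Rfx3, Dsp, Il16 and Prox1, log2 differences 0.60, 0.90, 0.46 and 0.46) and none on the left, on the right or over all preparations. Their median was 0.46 in SIT, against 0.001 over all genes tested, and 0.15 over all preparations. Prox1 was the 1 of the 8 called with all 8 SIT libraries, where the median was 0.28, and leaving out 1 library at a time gave 3 to 6 called. Prox1 stands in both lists. All 4 choroid plexus markers were called lower in ELE mice on the right and over all preparations. On the right their sums were 17.3 to 43.1 CPM in ELE mice and 35.0, 84.2 and 1154 CPM in sedentary mice, which overlap. Without TG9.2.3, the library at 1154 CPM, 1 of the 4 was still called, Ttr, at 9.93 against 34.3 CPM in place of 378 CPM. Over all preparations 1 to 4 were called when 1 library was left out. None of the 10 neurogenesis genes was called in either of these comparisons.

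Neurod1 differed between the preparations. The levels had been seen before this comparison was set up, and the SIT and the separately isolated libraries came from different mice, so that the mice and the preparation cannot be told apart. Neurod1 was at 40.2 ± 9.30 CPM (SD, n = 5) in SIT and at 25.9 ± 3.36 CPM (SD, n = 12) in separate isolation, a fold of 1.55 with a 95% interval of 1.27 to 1.90 (adjusted p = 0.00343, edgeR). It was the 1 member of 10 with an adjusted p under 0.05, as 16.9% of all genes had, and Calb2 also passed the study's rule, as 12.6% did (3.71% higher and 8.85% lower in SIT). Calb2 did not pass it under DESeq2, and Dcx, which did not pass here, did under DESeq2, median-of-ratios size factors and no filter. The lowest SIT value of Neurod1, 30.9 CPM, was above all but 1 of the 12 others. With all 8 SIT libraries, 2206 of 19935 genes had an adjusted p under 0.05, and Neurod1 was again the 1 member (adjusted p = 0.0112, edgeR).

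Calb2 was at 39.1 ± 9.85 CPM (SD, n = 5) in SIT and 25.1 ± 7.77 CPM (SD, n = 12) in separate isolation (fold 1.49, adjusted p = 0.121), and Dcx at 23.8 ± 5.80 and 16.9 ± 4.65 CPM (fold 1.36, adjusted p = 0.178). With all 8 SIT libraries the fold of Dcx was 1.60 (adjusted p = 0.0560), with NT7.2.3 at 49.3 CPM. Of 7 astrocyte markers, 5 were lower in SIT by the study's rule, with sums of 3485 to 5605 CPM against 5010 to 8632 CPM, and of 8 granule cell markers 3 were higher. Their part in the differences was not tested.

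Among the separately isolated mice, Dcx and Sox11 went with the first part of the mouse number, each part holding 1 ELE and 1 sedentary mouse for each hemisphere. Dcx was between 10.2 and 14.0 CPM in the 4 mice numbered TG7.3, between 11.4 and 19.3 CPM in TG9.1 and between 18.0 and 24.04 CPM in TG9.2. Every TG9.2 mouse was above every TG7.3 mouse, in both hemispheres and in both exercise groups. Sox11 was between 16.6 and 25.4 CPM in TG7.3, between 35.2 and 85.4 CPM in TG9.1 and between 35.9 and 43.1 CPM in TG9.2, so that the TG7.3 mice lay below the other 8. What the first part of the number stands for was not stated in the sources used here.

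A test of the mouse number with hemisphere and exercise as terms, added after these values were seen, gave Dcx an adjusted p of 0.296, Sox11 one of 0.260 and Neurod1 one of 0.427 (edgeR). These were the 3 of 10 members with an unadjusted p under 0.05, and 11.2% of all 18810 genes had one. The other 7 members had adjusted values between 0.516 and 0.955. With no filter Igfbpl1 also had an unadjusted p under 0.05. Of all genes, 8 had an adjusted p under 0.05 in edgeR, 14 with no filter and 303 in DESeq2.

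**Figure D4:**
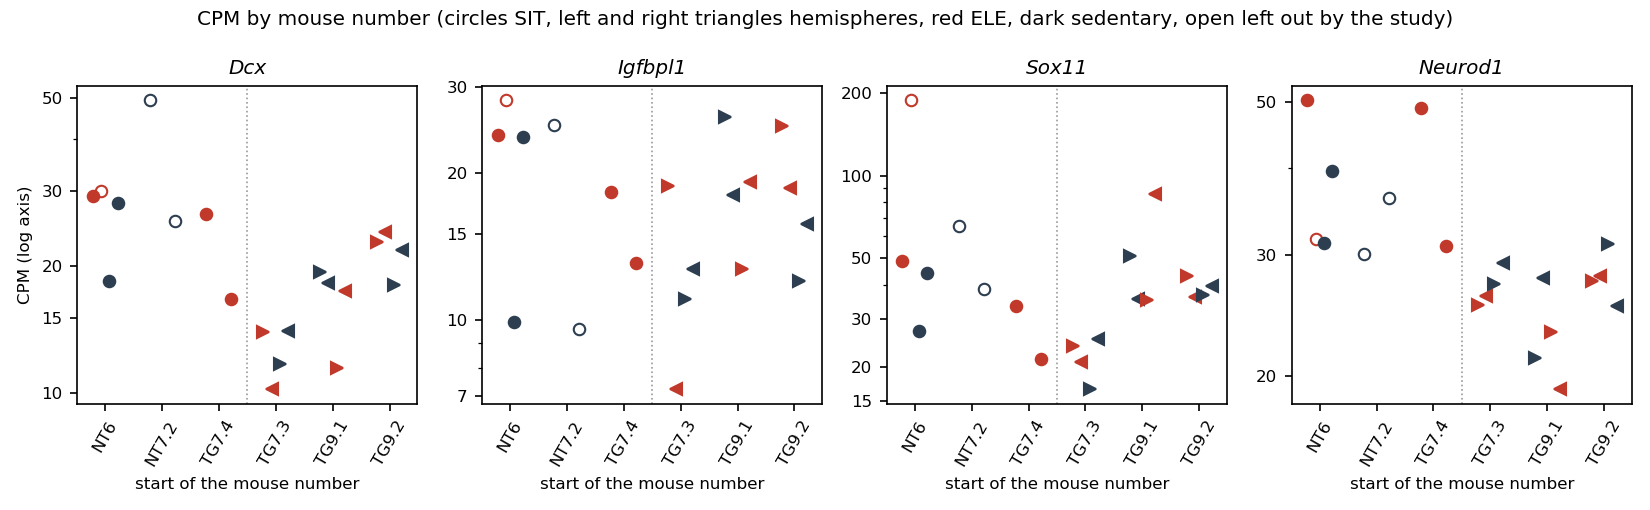
CPM (log axis) of Dcx, Igfbpl1, Sox11 and Neurod1 by the first part of the mouse number. Circles are SIT libraries, triangles pointing left or right the separately isolated hemispheres, red ELE, dark sedentary and open symbols the libraries the study left out; the 4 TG7.3 mice have Dcx at 10.2 to 14.0 CPM and Sox11 at 16.6 to 25.4 CPM.

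Some members also varied together within groups. Pearson's r was taken over the 17 libraries, from deviations of log2 CPM from the group means. It was 0.85 between Dcx and Igfbpl1, 0.76 between Sox11 and Igfbpl1 and 0.71 between Dcx and Sox11, all transcripts of the immature neuron. Top2a, of dividing cells, had r = 0.68 with Igfbpl1, 0.62 with Dcx and 0.59 with Sox11. The mouse number, with which Dcx and Sox11 went, was not removed from the deviations. How many of all gene pairs reach such r was not computed. Sox4 and Top2a had r = 0.84, although Top2a was read from 33 to 141 counts. Mki67 had r = -0.02 with Top2a and its highest r was 0.25, with Neurod1, which was -0.03 over all 20 libraries, where the highest was 0.38, with Nes. The lowest was r = -0.53, between Neurod1 and Nes. These are descriptions over the same 17 libraries, which share their depth and normalization, and the values were 0.82, 0.70 and 0.65 for the 3 immature neuron pairs over all 20 libraries.

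The genes whose variation was most like that of Dcx, among the 14213 genes at 1 CPM or more on average, were Hinfp (r = 0.95), Wwc2 (r = 0.94) and Atp6v1a (r = 0.93). For Neurod1 they were Ift80, Gm11007 and Zc3h12b (r = 0.95 each) and for Calb2 Atp6ap2 (r = 0.90), Vgll3 (r = 0.89) and Nudt10 (r = 0.87). None of the 10 members was among these nearest genes. Over all 20 libraries Atp6v1a remained among the 3 for Dcx (r = 0.91), Zc3h12b and Gm11007 for Neurod1 (r = 0.91 each) and Nudt10 for Calb2 (r = 0.83).

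**Figure D5:**
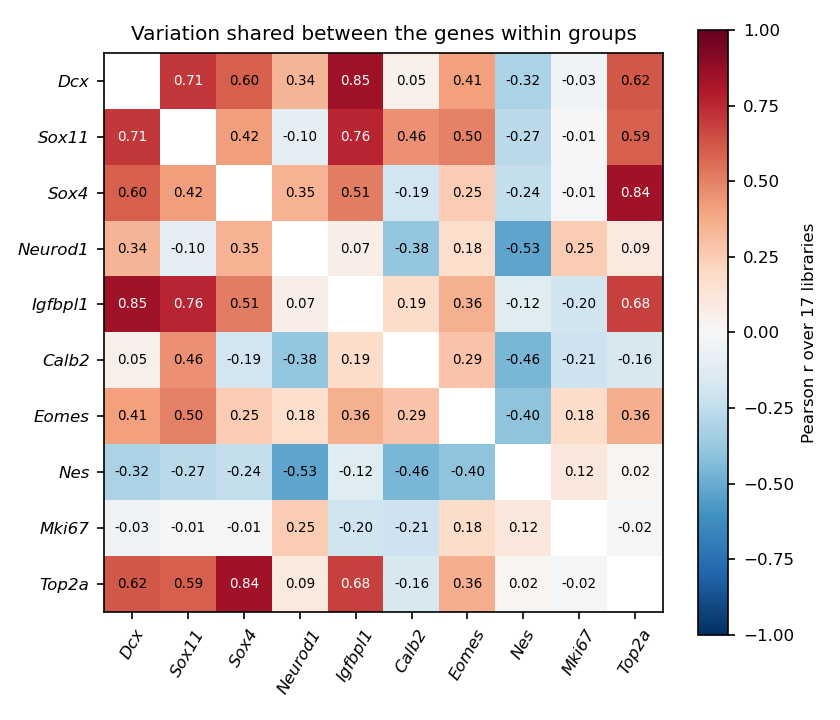
Pearson's r between the 10 genes over the 17 libraries that the study compared, from log2 CPM as deviations from the group means. The red block joins Dcx, Sox11 and Igfbpl1 (0.71 to 0.85), and Top2a stands at 0.59 to 0.68 with each of these. Sox4 and Top2a stand at 0.84, and Mki67 is close to 0 with most of the others.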

How the data were processed

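The authors aligned the TRAP-seq reads to GRCm38 with STAR 2.7.3a, removed duplicates with Picard 1.87, counted read pairs on exons by strand, and deposited the counts as whole numbers, not normalized, for 20 libraries of 1 mouse each. The columns were tied to groups through the study's list of mice. A wild-type table with 24 columns was not used, since their names match no sample label. Genes were named with GENCODE release 21 of the mouse (54587 of 55335 matched with version).

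The SIT libraries that the study compared were found by matching the mean normalized counts it lists over 24 possible subsets (633 of 633 genes within 0.1%, the next best 7). Libraries of a group differed by far more than counting error (chi-square per gene 15.7 to 374 over 24 pairs).

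Counts were scaled by TMM and tested with edgeR 4.0.16 (R 4.3.3, quasi-likelihood, filterByExpr, two-sided, Benjamini-Hochberg over all genes), fitting only the libraries compared. Intervals are 95% from the test's own standard error. FPKM is CPM per kilobase of merged exons. Floors and counting errors cover counting only. Likeness used log2 CPM with a pseudocount of 0.5. The steps were checked on simulated counts. The named genes are the members, at most the 3 genes with the smallest p past the study's rule in each list, the most and least abundant of each list, and the 3 nearest genes to Dcx, Neurod1 and Calb2. Dpysl3, Rbpj, Smo and Elavl4 were named after their values were seen. Alternatives were DESeq2 1.42.0, median-of-ratios size factors, no filter, all 8 SIT libraries, the 4 mice numbered NT6, a block by mouse number, 10 counts as the limit, CPM for FPKM, and leaving out each library. Leaving out each library for the gene lists, the comparison of SIT with separate isolation and the test of the mouse number were added after the data were seen. The members and lists were chosen with earlier results of these data known.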

Additional observations from a re-analysis of the deposited data

Results flagged for a closer look

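In groups of 4, 3 members had a library whose gap to its nearest neighbour exceeded Dixon's 95% limit. Sox11 was at 188 CPM in the ELE SIT library NT6.304, which the study left out, and between 21.5 and 48.8 CPM in the other 3, a gap of 0.836 of the range. Calb2 was at 37.4 CPM in the sedentary SIT library NT7.2.4 and between 48.2 and 49.8 CPM in the other 3 (0.870 of the range). Top2a was at 2.02 CPM in the sedentary SIT library NT6.306 and between 1.46 and 1.52 CPM in the other 3 (0.882 of the range). Chance flags about 1 in 20 groups, and 20 groups of 4 were tested, so that 1 was expected. In NT6.304 the interneuron markers summed to 970 CPM and in NT7.2.4 to 1290 CPM, against 159 to 247 CPM in the 5 SIT libraries the study kept, and whether they bear on these values was not tested.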

How the results depend on the processing

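The numbers of genes called by the study's rule depended on the libraries and the filter more than on the tool. With all 8 SIT libraries 1350 genes were called in SIT and 833 over all preparations, against 665 and 519, and 1179 in SIT within the 4 mice numbered NT6. With no filter on low counts 691, 715 and 1142 genes were called on the left, on the right and over all preparations, against 367, 347 and 519, and 1426 against 605 genes had an interaction p under 0.05, among them 4 members (Sox11, Sox4, Calb2 and Nes) against 0. Counts of called genes under DESeq2 and under median-of-ratios size factors stayed within 1.5 times. With no filter edgeR gave 105, 0, 27, 256 and 215 genes an adjusted p under 0.05 in SIT, on the left, on the right, over all preparations and for the interaction, against 0 in each with it. These numbers moved with the tool too: DESeq2 with the filter gave 17 in SIT, 3 on the left, 13 on the right and 55 over all preparations. With all 8 SIT libraries the sign of the log2 difference turned in SIT for Dcx (-0.249), Sox11 (0.724), Mki67 (-0.379) and Top2a (0.082), over all preparations for Mki67 (-0.108), and between SIT and separate isolation for Sox11 (0.524). Within the NT6 mice it turned for Sox11 (1.714, past the rule) and Top2a (0.275). In the comparison of SIT with separate isolation, Dcx passed the rule under DESeq2, median-of-ratios size factors, no filter and all 8 SIT libraries (0.448, 0.449, 0.435 and 0.676), Mki67 passed it with all 8 SIT libraries (0.71) and Nes with no filter (-0.593), which gave 4 members in each of these fits against 2, and Calb2 did not pass under DESeq2 (0.58). The cause of these changes was not tested. All 10 members also exceeded 10 counts in every library. By CPM in place of FPKM, 9 of 10 ranks moved, and Sox11 came first.

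Leaving out 1 library at a time gave 355 to 1086 called genes in SIT (without NT6.305 and TG7.4.2), 220 to 945 on the left (TG7.3.4 and TG7.3.2), 308 to 643 on the right (TG9.2.3 and TG9.1.1), 436 to 665 over all preparations, and 450 to 846 for the interaction, with 1 to 2, 0 to 2, 0 to 2, 0 and 0 to 2 members among them. Where this left 1 sedentary SIT library, that library was assumed to vary like the others. The sign of the log2 difference turned in SIT for Dcx (-0.226 to 0.39), Sox11 (-0.379 to 0.349), Igfbpl1 (-0.368 to 0.899), Mki67 (-0.268 to 0.898) and Top2a (-0.411 to 0.075). It turned on the left for Dcx (-0.382 to 0.195), Sox11 (-0.23 to 0.842), Igfbpl1 (-0.257 to 0.278) and Eomes (-0.698 to 0.622), and on the right for Dcx (-0.369 to 0.167), Sox11 (-0.352 to 0.342), Neurod1 (-0.21 to 0.068), Igfbpl1 (-0.057 to 0.692) and Calb2 (-0.267 to 0.654). Over all preparations it turned for Dcx (-0.119 to 0.068), Sox11 (-0.093 to 0.279), Neurod1 (-0.066 to 0.063), Igfbpl1 (-0.017 to 0.228) and Calb2 (-0.202 to 0.065). Calb2 in SIT stayed past the rule without each library in turn (-0.72 to -0.473).

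The columns do not carry the replicate numbers of the labels, so a replicate block by the first part of the mouse number was fitted. Same-numbered mice on one side correlated in their deviations over all genes tested at 0.016, 0.181 and 0.1 on the left. On the right they did so at -0.068, 0.208 and -0.089. The main tests had no block, although Dcx and Sox11 went with the number. With the block 929, 314 and 301 genes were called in SIT, on the left and on the right. The count over all preparations stayed within 1.5 times. Among the members, 0 were called in SIT against 1 without the block (Calb2 -0.375), and 0 on the right and over all preparations. Nes was the 1 called on the left, at 0.997 (unadjusted p = 0.0096 against 0.0437 without the block, edgeR). The sign turned in SIT for Sox11 (0.438), Nes (-0.038) and Top2a (0.181), on the right for Sox11 (0.074), and over all preparations for Neurod1 (-0.002) and Calb2 (0.045).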
